A study of Mus musculus with 2 samples.

Results

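The cells described here are type 1 helper CD4 T cells of the mouse colon, chosen cell by cell from raw UMI counts (unique molecular identifiers, each standing for 1 captured mRNA molecule). A cell needed at least 1 Cd4 UMI, at least 1 Cd3e or Cd3g UMI and at least 1 UMI of Ifng or Tbx21. It could hold no UMI of Cxcr5, Il21, Il17a, Il17f, Il23r, Foxp3, Cd8b1 or Cd79a, and fewer than 3 of Mki67 and Top2a together. The rule found 997 cells in the CD163_FL library and 544 in the CD163_NC library, 1541 of 24391 kept cells in all. Ifng and Tbx21 chose the cells, so their levels are a description and support nothing.

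The series profiled immune cells of the gut lamina propria, the connective tissue under the epithelium, with 10x 3' single-cell RNA sequencing. There were 2 libraries, CD163_FL and CD163_NC, with 1 library per group. The study set mice lacking CD163+ macrophages beside wild-type mice, by its title, and the labels do not tie either library to a genotype. The labels are silent on strain, age, number of mice and way of depletion, and both libraries carry the same description: CD45+ colon cells from a Percoll gradient, sorted with dead cells excluded. The libraries therefore keep their label names. With 1 library per group there was no replicate check and no test, every ratio compares these libraries rather than conditions, and intervals cover counting error only.

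Kept cells needed at least 500 UMIs, at least 200 genes and at most 10% mitochondrial UMIs, which left 14379 cells in CD163_FL and 10012 in CD163_NC. Type 1 helper cells held a median of 7515 UMIs and 2596 genes in CD163_FL, and 5681.5 UMIs and 2171.5 genes in CD163_NC. Depth therefore differed between the libraries in the very cells that a 1-UMI rule selects. The libraries shared 49 cell barcodes, of which 1 belonged to a type 1 helper cell of CD163_FL and 2 to type 1 helper cells of CD163_NC, and none to such cells in both. Scrublet marked 40 of the CD163_FL cells (4.01%) and 7 of the CD163_NC cells (1.29%) as doublets, and they were kept.

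Type 1 helper cells are the CD4 T cells that arm macrophages against microbes living inside cells. They arise under interleukin 12, switch on T-bet (encoded by Tbx21) and release interferon gamma (Ifng), and they use CD40 ligand (Cd40lg) to signal to macrophages and B cells. In the colon they lie among resident macrophages, respond to microbes, and are known to take part in experimental colitis.

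The promoters of the rule genes and of Csf1, which led the genes named below as higher in these cells, are shown because T-bet is known to bind T-box half-sites. The T-box half-site TCACAC, which reads as GTGTGA from the other strand, was searched on both strands in the 250 bases before the start of each gene, taken from RefSeq on GRCm38.p6. Capitals mark the half-site. Ifng (chr10:118440796-118441045, plus strand) and Tbx21 (chr11:97115332-97115581, minus strand) held none in this window, and Csf1 (chr3:107760470-107760719, minus strand) held 1, starting 117 bases before the gene start.
Ifng: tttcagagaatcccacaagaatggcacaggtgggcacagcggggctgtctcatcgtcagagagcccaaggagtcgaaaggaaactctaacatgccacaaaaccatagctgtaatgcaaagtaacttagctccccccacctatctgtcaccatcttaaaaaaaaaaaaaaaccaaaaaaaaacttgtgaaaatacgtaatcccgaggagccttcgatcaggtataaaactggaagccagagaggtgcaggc
Tbx21: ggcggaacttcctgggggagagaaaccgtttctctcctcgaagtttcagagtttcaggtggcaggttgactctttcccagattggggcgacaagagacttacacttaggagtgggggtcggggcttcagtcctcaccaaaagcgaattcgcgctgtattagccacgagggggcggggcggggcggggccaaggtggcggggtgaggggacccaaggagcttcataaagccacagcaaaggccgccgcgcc
Csf1: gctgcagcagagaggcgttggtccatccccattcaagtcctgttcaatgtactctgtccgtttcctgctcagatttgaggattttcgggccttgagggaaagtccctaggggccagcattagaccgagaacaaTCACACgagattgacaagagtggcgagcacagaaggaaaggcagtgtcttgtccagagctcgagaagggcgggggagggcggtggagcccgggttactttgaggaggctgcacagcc
The half-site was present in 3305 of 27025 promoters of that length (12.2%), so a match only describes these letters. Of the 12 genes named below as higher in type 1 helper cells, 11 had a promoter in the reference and Csf1 was the single one with a match. Of the 12 that stood lowest, 8 had a promoter and 0 had a match.

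Ifng (ENSMUSG00000055170, chromosome 10, 118441046 to 118445892, plus strand, mm10) was the gene that admitted most cells. Cells with Ifng but no Tbx21 UMI made up 504 of the 997 in CD163_FL (50.6%) and 170 of the 544 in CD163_NC (31.3%). Cells with both genes were 294 (29.5%) in CD163_FL and 250 (46.0%) in CD163_NC, and cells with Tbx21 alone were 199 (20.0%) in CD163_FL and 124 (22.8%) in CD163_NC. Both genes thus stood together in a larger share of the CD163_NC cells, although those cells were the shallower ones.

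Most cells entered on few molecules. Exactly 1 UMI of both genes together carried 340 cells (34.1%) in CD163_FL and 133 (24.4%) in CD163_NC. Another 420 cells (42.1%) of CD163_FL and 193 (35.5%) of CD163_NC had 2 to 4. A smaller set stood high, with at least 20 Ifng UMIs in 28 cells of CD163_FL (2.81%) and 19 of CD163_NC (3.49%). Where present, Ifng had a median of 2 UMIs per cell in CD163_FL with a highest value of 171, and a median of 3 in CD163_NC with a highest value of 63. The top 100 cells of CD163_FL held 56.0% of all Ifng UMIs of the type 1 helper cells, and the top 55 cells of CD163_NC held 50.2%. Just outside the rule, 221 cells of CD163_FL and 279 of CD163_NC had Ifng or Tbx21 and also a gene of another helper lineage. Of these, 122 (55.2%) in CD163_FL and 138 (49.5%) in CD163_NC were kept out by a single UMI.

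**Figure D1:**
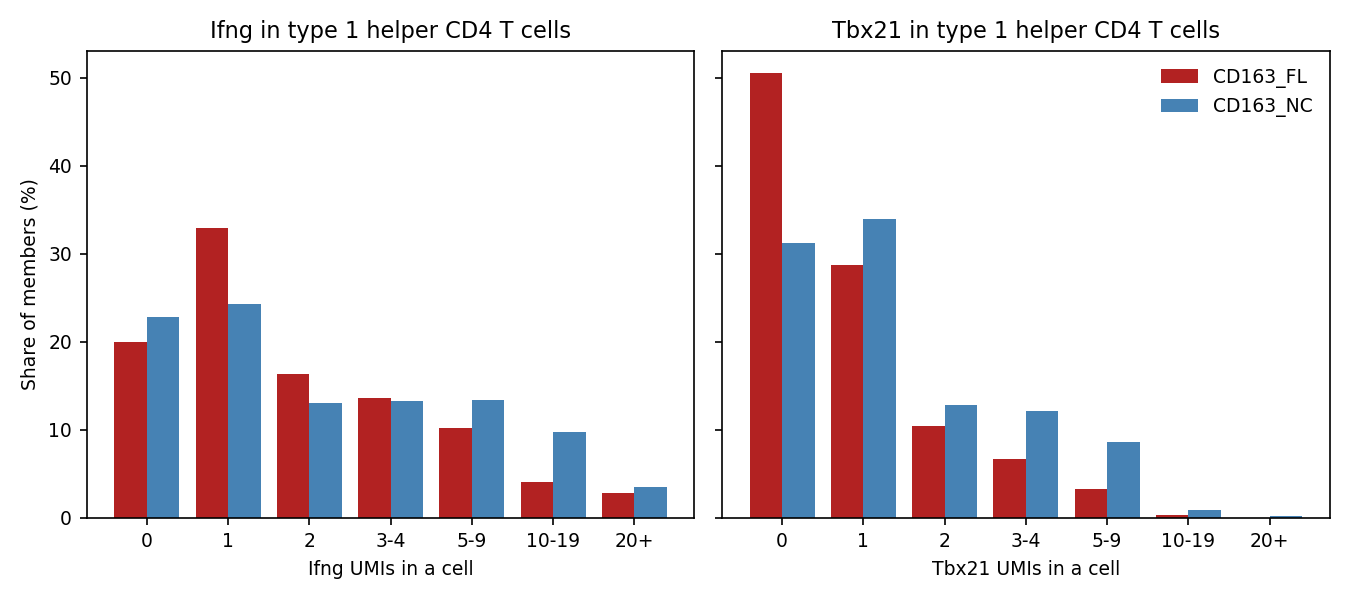
Share of type 1 helper cells (percent, vertical axis) in each class of UMIs per cell for Ifng and for Tbx21 (horizontal axis), with CD163_FL left of CD163_NC. Most cells sit in the low classes, and CD163_NC has more of its cells at 5 or more Ifng UMIs (26.7%) than CD163_FL (17.2%).

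Summed over the type 1 helper cells, Ifng stood at 426 CPM (the counts-per-million unit, from UMIs summed over the cells) in CD163_FL and 693 CPM in CD163_NC. Tbx21 (ENSMUSG00000001444, chromosome 11, 97098071 to 97115331, minus strand) stood at 118 CPM in CD163_FL and 271 CPM in CD163_NC. The order was the same over all CD4 T cells without the lineage conditions, where Ifng had 314 CPM in CD163_FL and 433 CPM in CD163_NC, and Tbx21 had 74.7 CPM in CD163_FL and 158 CPM in CD163_NC. Both genes thus took a larger part of the UMIs in CD163_NC, with or without the rule.

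The share of type 1 helper cells turned with depth. They were 6.93% (95% exact binomial interval 6.52 to 7.36) of kept cells in CD163_FL and 5.43% (5.00 to 5.90) in CD163_NC, a ratio of 1.28 (1.15 to 1.41). With each cell thinned to 2000 UMIs, and shallower cells left out, the rule found 334 of 13503 cells in CD163_FL (2.47%, 2.22 to 2.75) and 299 of 8946 in CD163_NC (3.34%, 2.98 to 3.74), a ratio of 0.740 (0.635 to 0.863). No order of the libraries in the share of these cells can therefore be read from the unthinned counts.

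The same happened within the CD4 T cells. Of the CD4 T cells without the lineage conditions, type 1 helper cells were 997 of 2033 in CD163_FL (49.0%, 46.8 to 51.2) and 544 of 1325 in CD163_NC (41.1%, 38.4 to 43.8). Thinned, they were 334 of 1003 in CD163_FL (33.3%, 30.4 to 36.3) and 299 of 706 in CD163_NC (42.4%, 38.7 to 46.1), a ratio of 0.786 (0.695 to 0.889). The conditions against other lineages also weighed differently, since without them Ifng or Tbx21 was found in 59.9% of CD4 T cells of CD163_FL and 62.1% of CD163_NC, and thinned in 33.5% and 44.9%. As a background level, B cells, which should hold few of these transcripts, had a UMI of either gene, at median depths of 11435 and 8642 UMIs in CD163_FL and CD163_NC, in 8.69% of cells in CD163_FL and 9.10% in CD163_NC, and thinned in 2.43% and 2.69%.

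**Figure D2:**
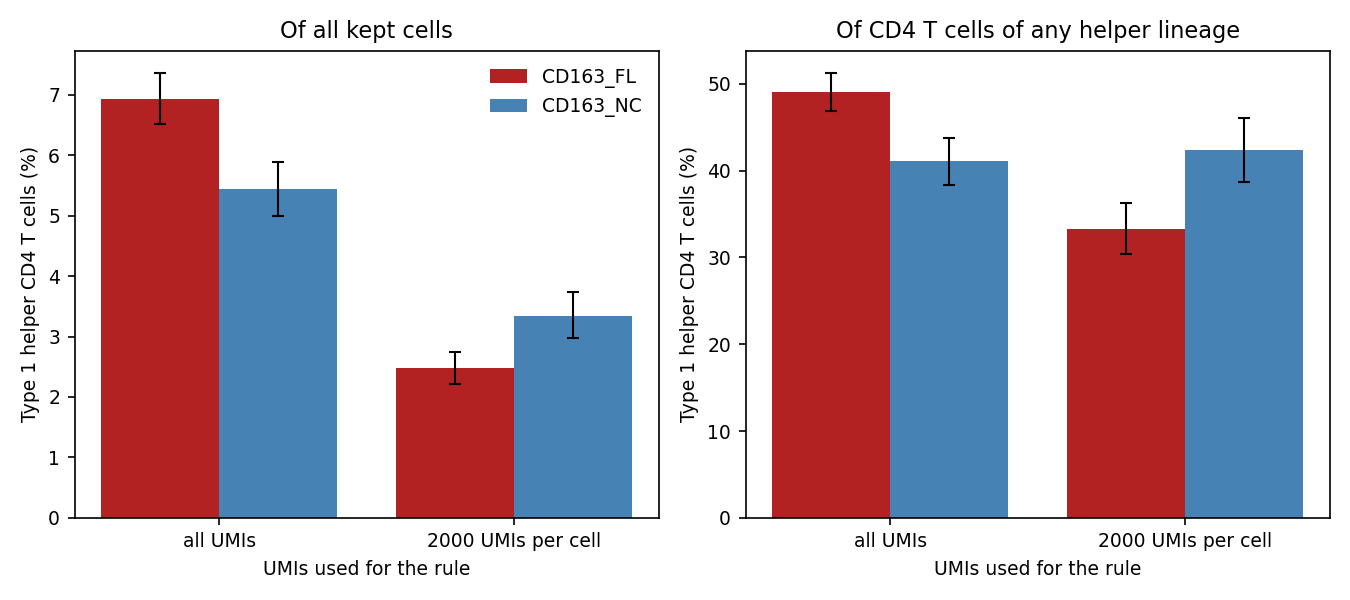
Type 1 helper cells as a percent of kept cells and of CD4 T cells (vertical axis), with all UMIs and thinned to 2000 UMIs per cell, CD163_FL left of CD163_NC, with 95% exact binomial intervals as bars. CD163_FL is the higher library with all UMIs and the lower one after thinning, for both denominators.

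The label was checked against the markers that the rule did not use. Cells of 2 other kinds from the same libraries served for comparison: CD4 T cells that met every other condition but had no Ifng or Tbx21 UMI (682 in CD163_FL, 312 in CD163_NC), and CD8 T cells with an Ifng or Tbx21 UMI (1016 in CD163_FL, 380 in CD163_NC). The negative CD4 T cells were shallower than the type 1 helper cells, at medians of 5872 UMIs in CD163_FL and 5384.5 in CD163_NC, and a cell without a UMI is not shown to lack the mRNA. Cd40lg, Lag3 and Slamf1 each had a ratio above 1 over the negative CD4 T cells in both libraries. Lag3 alone of these markers passed 1.5-fold in both, and none of them did once naive cells were left out of the comparison, as given below.

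Cd40lg (chromosome X, 57212143 to 57224042, plus strand), the ligand for CD40 on macrophages and B cells, had 67.1 CPM in CD163_FL type 1 helper cells and 147 CPM in those of CD163_NC. The negative CD4 T cells had 52.1 CPM in CD163_FL and 98.6 CPM in CD163_NC, giving ratios of 1.29 (1.10 to 1.51) and 1.49 (1.25 to 1.77). The CD8 T cells had only 1.31 CPM in CD163_FL and 3.25 CPM in CD163_NC, so that the type 1 helper cells exceeded them 51.2-fold (29.1 to 99.7) and 45.2-fold (22.8 to 105). The gene thus marked the helper side of these T cells with an Ifng or Tbx21 UMI. A Cd40lg UMI was found in 30.2% of type 1 helper cells in CD163_FL and 44.5% in CD163_NC, against 0.262% and 0.380% of B cells.

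Lag3 (chromosome 6, 124904361 to 124911705, minus strand), an inhibitory receptor for class II molecules, had 66.4 CPM in CD163_FL type 1 helper cells and 148 CPM in those of CD163_NC. The negative CD4 T cells had 37.6 CPM in CD163_FL and 40.8 CPM in CD163_NC, ratios of 1.76 (1.48 to 2.11) and 3.63 (2.84 to 4.70). Slamf1 (chromosome 1, 171767127 to 171801184, plus strand), a self-binding costimulatory receptor, had 164 CPM in CD163_FL type 1 helper cells and 179 CPM in those of CD163_NC, against 131 and 85.9 CPM in the negative CD4 T cells of CD163_FL and CD163_NC. Its ratio was 1.25 in CD163_FL, close to that of Cd40lg there, and 2.08 in CD163_NC.

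Across all genes the contrast with the negative CD4 T cells was wider in CD163_NC. A gene was measured with at least 20 UMIs over both populations and counted as higher or lower at 1.5-fold. In CD163_FL, 741 of 10985 measured genes were higher in type 1 helper cells (6.75%) and 944 lower (8.59%). In CD163_NC, 1458 of 9883 were higher (14.8%) and 1031 lower (10.4%). In both libraries at once, 198 of 9722 were higher (2.04%) and 318 lower (3.27%), and 109 went in opposite directions (1.12%). The median gene had a log2 ratio of -0.0071 in CD163_FL and 0.06 in CD163_NC, against which the medians of gene lists below are to be read.

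The type 1 program, a list of 22 genes for interleukin 12 and 18 sensing, homing and effector factors of these cells, was higher mainly in CD163_NC. There 14 of 19 measured genes were higher and 0 lower (median log2 ratio 1.33), while in CD163_FL 3 of 20 were higher and 0 lower (median 0.30). Ccl5, Id2 and Nkg7 were higher in both libraries. Cxcr6 (chromosome 9, 123806475 to 123811760, plus strand), a homing receptor of tissue T cells, had 805 CPM in CD163_FL type 1 helper cells and 242 CPM in those of CD163_NC, against 548 and 54.5 CPM in the negative CD4 T cells of CD163_FL and CD163_NC. The ratios were 1.47 (1.40 to 1.54) in CD163_FL and 4.44 (3.60 to 5.52) in CD163_NC. For this receptor the wider contrast in CD163_NC thus came with a low level in its negative CD4 T cells rather than with a high level in its type 1 helper cells.

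The interleukin 12 receptor chain Il12rb2 had 659 CPM in CD163_FL type 1 helper cells and 453 CPM in those of CD163_NC, against 538 and 116 CPM in the negative CD4 T cells of CD163_FL and CD163_NC. Bhlhe40, a transcription factor needed for cytokine output of helper cells, had 1141 CPM in CD163_FL type 1 helper cells and 1208 CPM in those of CD163_NC, against 783 and 398 CPM in the negative CD4 T cells of CD163_FL and CD163_NC. In these genes as well the type 1 helper cells of the libraries lay nearer to each other than the negative CD4 T cells did. Cxcr3, the receptor most used to mark type 1 cells, barely separated the populations in CD163_FL, with 70.7 CPM in type 1 helper cells and 71.5 CPM in the negative CD4 T cells, and did so in CD163_NC, with 67.9 CPM in type 1 helper cells and 27.5 CPM in the negative CD4 T cells.

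The naive genes bear on this difference. Of 14 genes of naive and recirculating T cells, 9 of 12 measured in CD163_FL were lower in type 1 helper cells (median log2 ratio -1.05), and 14 of 14 in CD163_NC (median -1.75). Ccr7, the lymph node homing receptor, had 30.2 CPM in CD163_FL type 1 helper cells and 58.1 CPM in those of CD163_NC, against 206 and 274 CPM in the negative CD4 T cells of CD163_FL and CD163_NC. The negative CD4 T cells thus held more cells of naive character, in both libraries.

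When comparison cells with any UMI of a small set of naive T cell genes, Ccr7 and Lef1 among them, were left out, a choice made after the values were seen, 207 negative CD4 T cells remained in CD163_FL and 94 in CD163_NC. Against these, 0 of 20 type 1 program genes were higher in type 1 helper cells of CD163_FL and 5 of 19 in CD163_NC, with medians of 0.12 and 0.28. Over all measured genes, 11.6% were then higher in CD163_FL and 15.3% in CD163_NC. The program's count in CD163_NC without naive cells was thus 5 in place of 14, and Cxcr6 stood 1.12-fold higher in CD163_FL and 1.64-fold higher in CD163_NC. Gzmb then stood at 1.26-fold in CD163_FL and 1.69-fold in CD163_NC. Of the markers, Lag3 gave 0.960-fold (0.764 to 1.22) in CD163_FL and 1.38-fold (1.03 to 1.88) in CD163_NC. Cd40lg gave 1.17-fold (0.916 to 1.52) in CD163_FL and 1.04-fold (0.806 to 1.36) in CD163_NC, and Slamf1 gave 1.01-fold (0.873 to 1.18) in CD163_FL and 1.21-fold (0.947 to 1.58) in CD163_NC. The contrast of the markers with the negative CD4 T cells was thus small or undetectable without naive cells, and the contrast of Cd40lg with the CD8 T cells does not rest on them.

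By the smaller ratio of the libraries, the genes higher in type 1 helper cells were led by Csf1, Tmem163 and Rgs16. Csf1 (ENSMUSG00000014599, chromosome 3, 107741048 to 107760469, minus strand) encodes the growth factor on which macrophages depend. It had 24.2 CPM in CD163_FL type 1 helper cells (195 UMIs) and 43.0 CPM in those of CD163_NC (149 UMIs), against 8.11 CPM (36 UMIs) and 1.65 CPM (3 UMIs) in the negative CD4 T cells of CD163_FL and CD163_NC. The ratios were 2.98 (2.08 to 4.37) in CD163_FL and 26.0 (8.74 to 128) in CD163_NC. In CD163_FL the Csf1 ratio was 2.34 (1.34 to 4.47) without naive comparison cells, and in CD163_NC those comparison cells then held 0 UMIs, with a lower interval bound of 5.48. Csf1 was thus higher under either choice of comparison cells. A Csf1 UMI was found in only 9.93% of type 1 helper cells in CD163_FL and 11.9% in CD163_NC.

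Tmem163, a zinc transporter, had 404 CPM in CD163_FL type 1 helper cells and 124 CPM in those of CD163_NC, against 148 and 28.1 CPM in the negative CD4 T cells of CD163_FL and CD163_NC, or 2.72-fold and 4.43-fold. Rgs16, which dampens G protein signalling from chemokine receptors, had 124 CPM in CD163_FL type 1 helper cells and 109 CPM in those of CD163_NC, against 45.8 and 31.4 CPM in the negative CD4 T cells of CD163_FL and CD163_NC, or 2.71-fold and 3.49-fold. Without naive comparison cells, Tmem163 was 1.76-fold (1.56 to 2.00) and 1.52-fold (1.09 to 2.16) higher, and Rgs16 1.83-fold (1.47 to 2.32) and 2.37-fold (1.54 to 3.82) higher, in CD163_FL and CD163_NC. Klrc2, an activating NK receptor chain, had 67.2 CPM in CD163_FL type 1 helper cells and 29.2 CPM in those of CD163_NC, against 32.9 and 3.30 CPM in the negative CD4 T cells of CD163_FL and CD163_NC. The other genes of this group were Ncaph, Dusp14, Sema7a, Prf1, Dclk1, Gldc, Podnl1 and Il2ra, at 1.96-fold to 2.77-fold in CD163_FL. Of these, Il2ra, the high-affinity interleukin 2 receptor chain, had 234 CPM in CD163_FL type 1 helper cells and 124 CPM in those of CD163_NC, against 119 and 49.6 CPM in the negative CD4 T cells of CD163_FL and CD163_NC. Without naive comparison cells, Ncaph, Prf1, Dclk1, Podnl1 and Il2ra were each below 1.5-fold in at least 1 library. Reads of Klrc2 may be shared with its close paralog Klrc1.

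Of the genes lower in type 1 helper cells than in the negative CD4 T cells in both libraries, Ifngr2 stood second after Stab2, a scavenger receptor gene that rested on a few comparison cells. Ifngr2 encodes the signalling chain of the interferon gamma receptor (ENSMUSG00000022965, chromosome 16, 91547072 to 91565623, plus strand). Type 1 helper cells had 5.08 CPM in CD163_FL and 9.82 CPM in CD163_NC, against 45.8 and 69.9 CPM in the negative CD4 T cells of CD163_FL and CD163_NC. The ratios were 0.111 (0.0773 to 0.156) and 0.140 (0.0932 to 0.206). Without naive comparison cells they were 0.710 (0.340 to 1.66) in CD163_FL and 0.519 (0.244 to 1.23) in CD163_NC, with intervals that span 1. Igfbp4, St8sia6, Nsg2, Patj, Ccr7, Lrp5 and Cnn3 were also among the 12 lowest. Ccl7 and Clec4a3, also among them, rested like Stab2 on a few comparison cells, with a Stab2 UMI in 0.733% of negative CD4 T cells in CD163_FL and 0.321% in CD163_NC. Macrophage markers summed to 158 CPM in type 1 helper cells of CD163_FL and 122 CPM in those of CD163_NC, against 225 and 753 CPM in the negative CD4 T cells, and their part in these 3 genes was not tested.

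**Figure D3:**
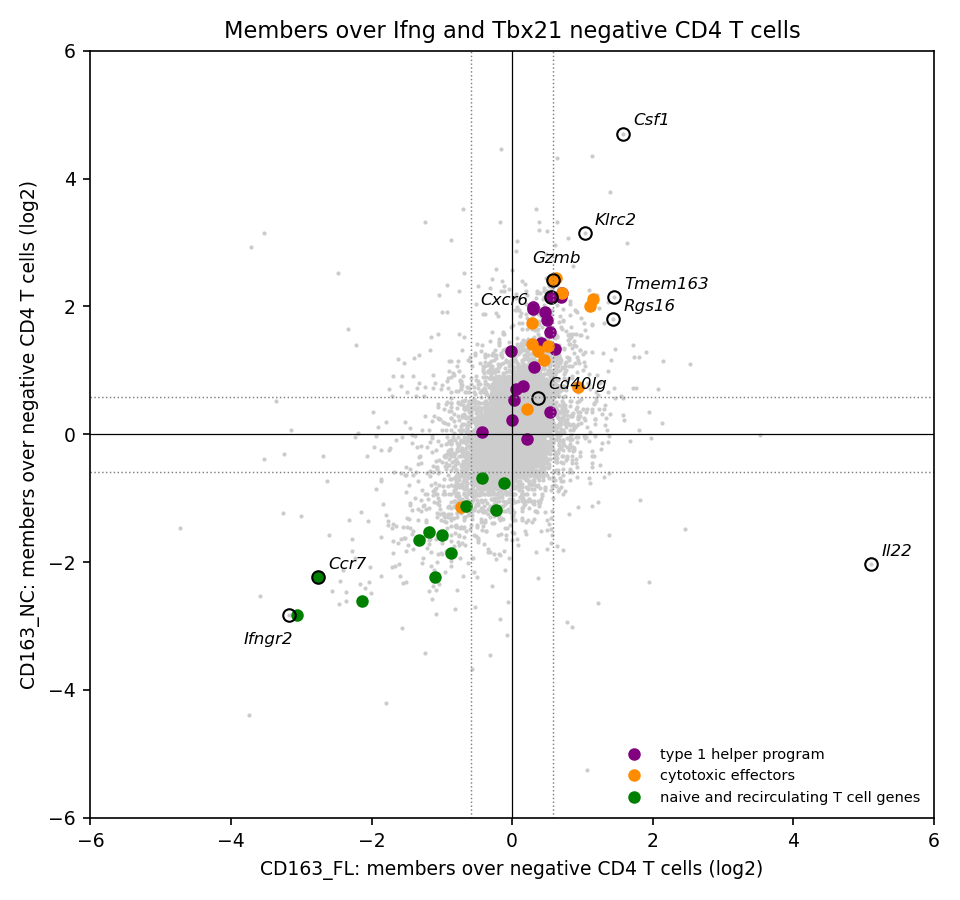
Log2 ratio of type 1 helper cells over Ifng- and Tbx21-negative CD4 T cells for 9722 genes, CD163_FL on the horizontal and CD163_NC on the vertical axis, 1 point per gene, with 1.5-fold limits dotted and the type 1, cytotoxic and naive lists coloured. Csf1 lies far up on the vertical axis, the naive genes lie low in both libraries, and Il22 lies at opposite signs.

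Among secreted factors, Csf1 was the 1 helper cytokine of 10 measured in both libraries that was higher in both, and 0 were lower in both. Il10, which restrains macrophages, had 94.0 CPM in CD163_FL type 1 helper cells and 186 CPM in those of CD163_NC, against 72.6 and 84.8 CPM in the negative CD4 T cells of CD163_FL and CD163_NC. Without naive comparison cells Il10 turned to 0.671-fold (0.556 to 0.815) in CD163_NC and stood at 1.22-fold (0.986 to 1.52) in CD163_FL. Tnf, the macrophage-activating partner of interferon gamma, had 45.3 CPM in CD163_FL type 1 helper cells and 80.9 CPM in those of CD163_NC, against 46.0 and 69.4 CPM in the negative CD4 T cells of CD163_FL and CD163_NC. Tnf thus hardly separated these populations in either library. Il2, the T cell growth factor, was near the floor in type 1 helper cells, at 2.48 CPM in CD163_FL and 0.867 CPM in CD163_NC. Csf2, which supports myeloid cells, had 8.42 CPM in CD163_FL type 1 helper cells and 8.38 CPM in those of CD163_NC, against 24.3 and 3.86 CPM in the negative CD4 T cells of CD163_FL and CD163_NC. Without naive comparison cells its ratio was 0.134 (0.0955 to 0.188) in CD163_FL and 0.569 (0.244 to 1.54) in CD163_NC. Its higher level in CD163_NC thus did not hold under that choice, and few UMIs stood behind it.

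Of the cytotoxic effectors, 5 of 13 genes measured in both libraries were higher in both, namely Prf1, Tnfsf10, Nkg7, Klrd1 and Klrc1, and Lamp1 was lower. Gzmb (chromosome 14, 56258838 to 56262260, minus strand), a granule protease, had 741 CPM in CD163_FL type 1 helper cells and 648 CPM in those of CD163_NC, against 494 and 121 CPM in the negative CD4 T cells of CD163_FL and CD163_NC. The ratios were 1.499 (1.43 to 1.57), just under the 1.5-fold limit, and 5.35 (4.66 to 6.17). Nkg7, a protein of cytotoxic granules, had 501 CPM in CD163_FL type 1 helper cells and 442 CPM in those of CD163_NC, against 305 and 95.8 CPM in the negative CD4 T cells of CD163_FL and CD163_NC. In CD163_NC 11 of 13 cytotoxic genes were higher, and in CD163_FL 5 of 16. Without naive comparison cells, 3 of 16 cytotoxic genes were higher in CD163_FL and 7 of 13 in CD163_NC.

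In other groups a smaller share of genes was higher in both libraries than among the cytotoxic effectors. Of 17 costimulatory genes, Tnfrsf4 (OX40) alone was higher in both libraries, with 641 CPM in CD163_FL type 1 helper cells and 519 CPM in those of CD163_NC, against 413 and 180 CPM in the negative CD4 T cells of CD163_FL and CD163_NC. Without naive comparison cells Tnfrsf4 stood at 1.04-fold (0.962 to 1.12) in CD163_FL and 1.28-fold (1.10 to 1.49) in CD163_NC. Of the checkpoint receptors, Lag3 and Havcr2 were higher in both among 12 measured, and without naive comparison cells Havcr2 stood at 1.60-fold (1.32 to 1.96) in CD163_FL and 2.03-fold (1.23 to 3.62) in CD163_NC. Of 17 effector transcription factors, Prdm1, Id2 and Batf were higher in both and Id3 and Tcf7 lower, and without naive comparison cells each of these 5 was within 1.5-fold in at least 1 library. Tcf7, which keeps T cells in a naive or memory state, had 79.6 CPM in CD163_FL type 1 helper cells and 157 CPM in those of CD163_NC, against 199 and 490 CPM in the negative CD4 T cells of CD163_FL and CD163_NC. None of 20 interferon gamma induced genes, 11 receptor complex genes or 12 mitochondrial respiration genes was higher or lower in both libraries. Over all measured genes only 2.04% were higher and 3.27% lower in both, so 0 in lists this small says little. In CD163_NC alone, 6 of 20 interferon gamma induced, 2 of 11 receptor complex and 2 of 12 mitochondrial genes were higher, beside 14.8% of all genes.

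The CD8 T cells with Ifng or Tbx21 differed from the type 1 helper cells in other genes. Over all measured genes, 467 of 10060 were higher in type 1 helper cells in both libraries (4.64%) and 414 lower (4.12%). Of the cytotoxic effectors, 12 of 15 were lower in type 1 helper cells in both libraries and 0 higher. Gzma, a granule protease, had 95.0 CPM in CD163_FL type 1 helper cells and 45.9 CPM in those of CD163_NC, against 1086 and 969 CPM in the CD8 T cells of CD163_FL and CD163_NC. Eomes, a T-box factor of killer cells, had 3.34 CPM in CD163_FL type 1 helper cells and 2.02 CPM in those of CD163_NC, against 51.0 and 68.6 CPM in the CD8 T cells of CD163_FL and CD163_NC. Ccl5, a chemokine for T cells and macrophages, had 2269 CPM in CD163_FL type 1 helper cells and 2497 CPM in those of CD163_NC, against 4906 and 8551 CPM in the CD8 T cells of CD163_FL and CD163_NC.

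On the helper side, 7 of 10 cytokine genes were higher in type 1 helper cells than in the CD8 T cells in both libraries, with 0 lower. So were 9 of 17 costimulatory genes, with Slamf7 and Cd226 lower, and 7 of 13 checkpoint receptors, with Cd160 and Cd244a lower. Il10 exceeded the CD8 T cells 6.62-fold in CD163_FL and 10.9-fold in CD163_NC, and Tnfrsf4 did so 37.6-fold and 28.4-fold. Maf, a transcription factor for Il10 in helper cells, had 910 CPM in CD163_FL type 1 helper cells and 1198 CPM in those of CD163_NC, against 49.6 and 60.5 CPM in the CD8 T cells of CD163_FL and CD163_NC. Most of the measured helper cytokines thus stood above the CD8 T cells, and most of the cytotoxic genes below them, in both libraries. The few type 17 helper cells without Ifng or Tbx21, 45 in CD163_FL and 23 in CD163_NC, had 88.3 and 154 CPM of Gzmb, below the type 1 helper cells of either library.

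**Figure D4:**
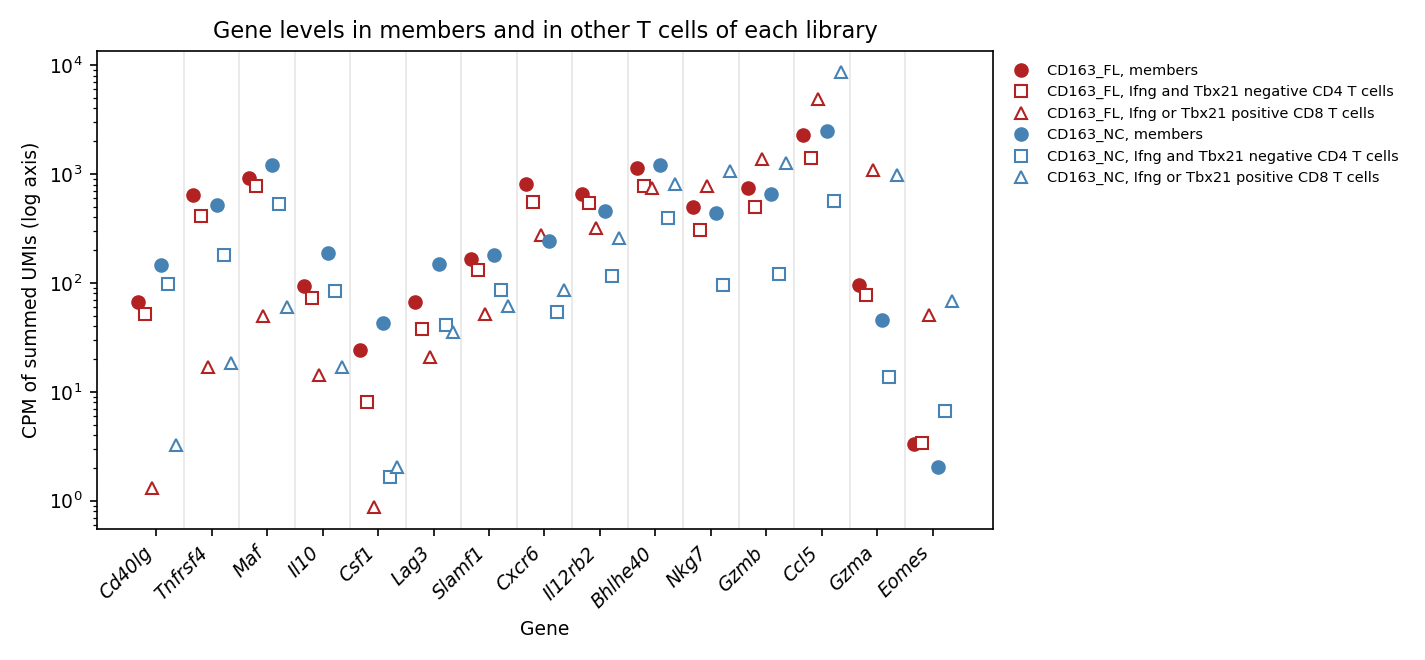
Levels of 15 genes (CPM of summed UMIs, log axis) in type 1 helper cells, Ifng- and Tbx21-negative CD4 T cells and Ifng- or Tbx21-positive CD8 T cells, for CD163_FL and CD163_NC. Cd40lg, Tnfrsf4, Maf and Il10 stand above the CD8 T cells, while Gzma, Eomes and Ccl5 stand below them, in both libraries.

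The type 1 helper cells with many Ifng UMIs differed from those that entered on 1 UMI. In the 171 cells of CD163_FL and 145 of CD163_NC with at least 5 Ifng UMIs, the macrophage-attracting chemokines Ccl3 and Ccl4 were high. Ccl3 had 293 CPM in CD163_FL and 297 CPM in CD163_NC in these cells, against 63.0 and 43.3 CPM in the cells of CD163_FL and CD163_NC that entered on exactly 1 UMI. Gzmb had 904 CPM in CD163_FL and 827 CPM in CD163_NC at 5 or more Ifng UMIs, against 719 and 443 CPM in the 1-UMI cells of CD163_FL and CD163_NC. The naive gene Ccr7 had 49.8 CPM in the 1-UMI cells of CD163_FL and 116 CPM in those of CD163_NC. At 5 or more Ifng UMIs it had 14.7 CPM in CD163_FL and 43.6 CPM in CD163_NC, and over all type 1 helper cells 30.2 and 58.1 CPM. Ccl5 and the granule protease Gzmk did not follow in CD163_FL, where Ccl5 had 2151 CPM at 5 or more Ifng UMIs against 2194 CPM in the 1-UMI cells, and Gzmk had 13.6 CPM against 37.1 CPM. Ccl3 and Gzmb were thus higher, and Ccr7 lower, at 5 or more Ifng UMIs than in the 1-UMI cells of both libraries. Of the 1-UMI cells, 36.5% in CD163_FL and 47.4% in CD163_NC held Tbx21 and no Ifng. The 1-UMI cells were also shallower. Their median was 6855 UMIs in CD163_FL and 5424 in CD163_NC, against 8995 and 5992. Ifng is a rule gene, so this split is a description only.

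The genes most like Ifng among the type 1 helper cells were Furin, Sytl3, Gadd45b, Nkg7 and Gzmb, by the difference in the share of cells with a UMI between 420 Ifng-positive and 574 Ifng-negative cells of CD163_FL, and 276 and 263 cells of CD163_NC, each thinned to 2000 UMIs. Furin, a protease that matures secreted proteins, was found in 57.9% of Ifng-positive and 48.1% of Ifng-negative cells of CD163_FL, and in 53.6% and 41.1% of those of CD163_NC. Nkg7 was found in 56.0% of Ifng-positive and 47.4% of Ifng-negative cells of CD163_FL, and in 53.3% and 38.4% of those of CD163_NC. Tbx21 ran the other way. In CD163_FL it was found in 15.7% of Ifng-positive and 25.4% of Ifng-negative cells, and in CD163_NC in 36.6% and 43.3%. The 199 cells of CD163_FL and 124 of CD163_NC without any Ifng UMI before thinning needed Tbx21 to enter, which builds in part of this order. The other Ifng-negative cells had Ifng UMIs before thinning, so they hold less Ifng rather than none.

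Interferon and stress genes differed between the type 1 helper cells of the libraries. Of 10999 measured genes, 1307 were at least 1.5-fold higher in the type 1 helper cells of CD163_FL over those of CD163_NC (11.9%) and 1929 lower (17.5%), with a median log2 ratio of -0.01. In the negative CD4 T cells 1880 of 9924 were higher (18.9%) and 1673 lower (16.9%), with a median of 0.07. In type 1 helper cells, 19 of 19 measured type I interferon induced genes were lower in CD163_FL (median log2 ratio -1.93), as were 13 of 19 in the negative CD4 T cells (median -1.31). Ifi27l2a, an interferon-induced gene, had 839 CPM in CD163_FL type 1 helper cells and 4044 CPM in those of CD163_NC. Irf7, which amplifies the interferon response, had 29.4 CPM in CD163_FL type 1 helper cells and 116 CPM in those of CD163_NC. The difference reached beyond these cells, since Ifi27l2a had 310.5 CPM in B cells of CD163_FL and 2503 CPM in those of CD163_NC.

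Of 15 genes known to respond to tissue dissociation, 13 were lower in CD163_FL type 1 helper cells (median log2 ratio -1.35), and 13 of 15 in the negative CD4 T cells (median -1.04). Fos, an immediate early transcription factor, had 56.0 CPM in CD163_FL type 1 helper cells and 399 CPM in those of CD163_NC. Of 21 early genes of T cell receptor activation, 10 were lower in CD163_FL and 2 higher (median -0.56), beside a median of -0.57 in the negative CD4 T cells. These lists moved alike in both CD4 populations, and the part of handling or of interferon in any other difference between the libraries was not tested.

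The type 1 program stood somewhat higher in CD163_FL type 1 helper cells, with 8 of 20 genes higher and 1 lower (median log2 ratio 0.24), and in the negative CD4 T cells 15 were higher and 1 lower (median 1.30). Cxcr6 had 3.33-fold (3.10 to 3.58) the CD163_NC level in CD163_FL type 1 helper cells, and 10.1-fold in the negative CD4 T cells. Il18r1, the interleukin 18 receptor chain, had 1080 CPM in CD163_FL type 1 helper cells and 343 CPM in those of CD163_NC, a ratio of 3.15 (2.96 to 3.34). The cytotoxic list had 8 of 16 genes higher and 0 lower in CD163_FL type 1 helper cells (median 0.65), and 13 of 16 higher in the negative CD4 T cells (median 1.61). Gut homing genes were higher in 4 of 14 (median 0.49), namely Itga4, Itgb7, Ccr9 and S1pr4. In the negative CD4 T cells 10 of 14 were higher and 1 lower (median 1.12). Against this, Cd40lg was lower in CD163_FL type 1 helper cells, at 0.457-fold (0.405 to 0.517), as were Lag3, Il10, Tnf, Lta and Csf1. Cxcr6, Il18r1 and the gut homing genes named here were thus higher in CD163_FL type 1 helper cells, while Cd40lg, Il10 and the homing receptor Ccr7 were lower there. Cd40lg was also lower in the negative CD4 T cells of CD163_FL, and Cxcr6, Il18r1, Itga4, Ccr9 and S1pr4 were also higher there. The receptor complex list had 0 of 11 genes past 1.5-fold in either direction.

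**Figure D5:**
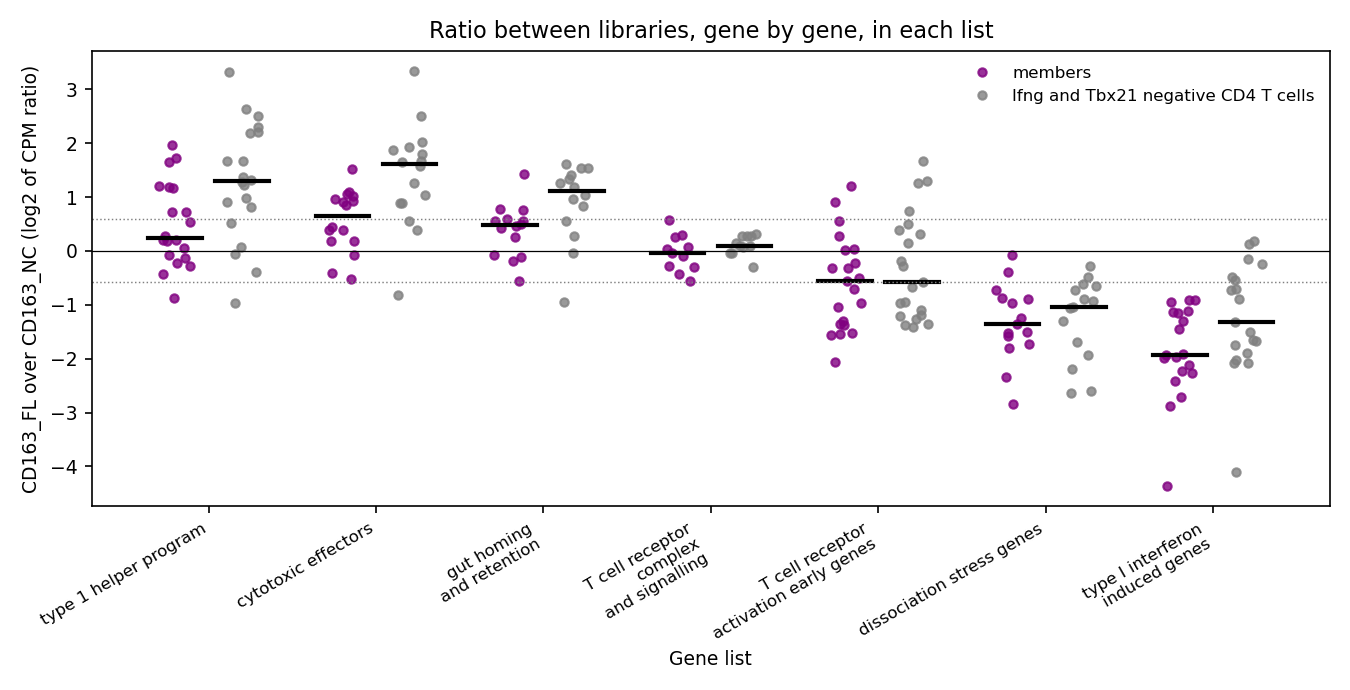
Log2 ratio of CD163_FL over CD163_NC (vertical axis) for each measured gene of 7 lists, type 1 helper cells left and Ifng- and Tbx21-negative CD4 T cells right, with bars at list medians. The medians of type I interferon and dissociation genes lie below 0 in both populations, and the type 1 and cytotoxic lists lie higher in the negative CD4 T cells.

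The largest single ratios between the libraries rested on few cells. Of the 12 genes with the highest ratios, 4 (Atp12a, Mgp, Igfbp5 and Kcnd2) had most of their UMIs in 1 cell of CD163_FL, and of the 12 lowest, 10 did in CD163_NC. Spink4, a goblet cell gene, had 514 UMIs in CD163_NC type 1 helper cells, and 483 of them (94.0%) lay in 1 cell. Such genes describe single barcodes and not the population.

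With the further condition of a UMI in at least 10% of the cells of the higher library, chosen after the values were seen, the genes higher in CD163_FL were led by Prickle1, Bend4 and Ctla2b. Prickle1, a planar cell polarity protein, had 166 CPM in CD163_FL type 1 helper cells and 12.7 CPM in those of CD163_NC, a ratio of 13.1 (9.67 to 18.1). S1pr1, the receptor by which T cells leave tissues, had 151 CPM in CD163_FL type 1 helper cells and 37.0 CPM in those of CD163_NC, a ratio of 4.08 (3.40 to 4.93). Zeb2, a transcriptional repressor that acts with T-bet in effector T cells, had 630 CPM in CD163_FL type 1 helper cells and 161 CPM in those of CD163_NC. The genes lowest in CD163_FL were again led by interferon genes, with Ifit3 at 1.24 CPM in CD163_FL type 1 helper cells and 25.4 CPM in those of CD163_NC. In these genes the negative CD4 T cells pointed the same way, with log2 ratios of 3.17 for Prickle1, 1.03 for S1pr1, 1.68 for Zeb2 and -4.10 for Ifit3.

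Markers of other cells stood below their level over all kept cells, but most were not absent, and those of plasma cells were still abundant. Plasma cell markers, 5 of 5 genes, had a UMI in 100% of type 1 helper cells of both libraries, at 3269 CPM in CD163_FL and 6182 CPM in CD163_NC, against 55558 and 64082 CPM over all kept cells. Neutrophil markers summed to 2.23 CPM in CD163_FL type 1 helper cells and 660 CPM in those of CD163_NC, with a UMI in 1.81% and 66.0% of cells, and over all kept cells to 104 and 6114 CPM. Epithelial markers summed to 9.78 CPM in CD163_FL and 79.7 CPM in CD163_NC. The CD8 marker Cd8a had a UMI in 3.01% of CD163_FL type 1 helper cells and 1.10% of those of CD163_NC. The invariant NKT segments Trav11 and Trav11d had 0 UMIs in both. Any Trav segment was seen in only 114 of these cells in CD163_FL and 87 in CD163_NC, so this 0 cannot show that NKT cells were absent. The NKT or MAIT marker list, which also holds Zbtb16 and Klrb1c, had a UMI in 3.11% and 3.31% of the cells. NK cell markers summed to 141 CPM in CD163_FL and 69.6 CPM in CD163_NC, below the 1277 and 1193 CPM of the CD8 T cells. Macrophage markers had 158 CPM in CD163_FL type 1 helper cells and 122 CPM in those of CD163_NC, against 422 and 596 CPM over all kept cells. Plasma cell, neutrophil, epithelial and NK markers were thus each higher in the library where they were higher over all kept cells, macrophage markers were not, and their part in the differences between libraries was not tested.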

How the data were processed

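Per the labels' protocols, CD45+ colon cells were sorted and sequenced with the 10x 3' kit V3. The deposited files hold raw UMI counts for 32285 genes, written by Cell Ranger 7.1.0 per the file headers, and the submitters' processing notes name Seurat 4 and mm10. The filtered barcodes were 15270 in CD163_FL and 10390 in CD163_NC, with 131306539 and 94729872 UMIs.

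Members were chosen and counted in Python 3.11.15 with numpy 2.4.6, scipy 1.17.1, pandas 2.3.3 and scanpy 1.11.5. The members and gene lists were chosen with earlier results of these data known. Levels are CPM from UMIs summed over cells. Ratios have exact conditional binomial 95% intervals, shares have exact binomial (Clopper-Pearson) ones, and ratios of shares log-normal ones. A count of 0 was read as allowing 3. Doublets (Scrublet) were kept, and called 746 barcodes (4.89%) in CD163_FL and 313 (3.01%) in CD163_NC, below the expected 12.2% and 8.31%. Scripts were tested on simulated data.

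Named genes against the negative cells were the 12 highest and 12 lowest by the ratio nearer to 1 of both libraries, with intervals outside 1.5-fold. Between libraries they were the 12 highest and 12 lowest ratios with at least 30 UMIs in the higher library, an interval outside 1.5-fold and at least 0.5 times the level over all kept cells. Mitochondrial, ribosomal, sex-linked, histone, receptor segment and unnamed genes were left out. Some genes that the rule or lists select are not reported here. Examples from the lists were picked after their values were seen. Gene positions are from GENCODE M21. With 1 library per group no test was made. Alternatives changed cell filters, the rule, scaling and gene limits.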

Additional observations from a re-analysis of the deposited data

Results flagged for a closer look

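Some genes stood in opposite directions between type 1 helper cells and the negative CD4 T cells in the libraries, and the difference was not tested. Il22, a cytokine that acts on epithelium, had a log2 ratio of 5.11 in CD163_FL and -2.03 in CD163_NC. Its level was 7.80 CPM in CD163_FL type 1 helper cells and 6.07 CPM in those of CD163_NC, against 0.225 CPM (1 UMI) and 24.8 CPM in the negative CD4 T cells of CD163_FL and CD163_NC. Il1r1, an interleukin 1 receptor, had log2 ratios of 0.63 in CD163_FL and -0.81 in CD163_NC. The interferon-induced genes ran the other way, with Ifi204 at -0.80 in CD163_FL and 0.68 in CD163_NC, and Rsad2 at -1.58 in CD163_FL and 0.76 in CD163_NC. Without naive comparison cells, Rsad2 stood at 0.911-fold (0.502 to 1.79) in CD163_FL and 1.16-fold (0.709 to 2.01) in CD163_NC. Ifi204 stood at 0.522-fold (0.359 to 0.776) and 1.06-fold (0.636 to 1.87), and Il1r1 at 1.41-fold (0.796 to 2.74) and 0.269-fold (0.163 to 0.455). The opposite directions of these genes were thus not clear there. Il22 kept its directions, with a lower bound of 2.58 in CD163_FL and 0.144-fold (0.0744 to 0.280) in CD163_NC.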

How the results depend on the processing

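No paired analysis was possible because each group had 1 library. The ratio of shares of kept cells, 1.28, was 0.740 when thinned to 2000 UMIs, 0.918 with members chosen by Tbx21 alone and 1.11 with at least 2 UMIs of the rule genes. The ratio within CD4 T cells, 1.19, was 0.786 thinned, 0.859 by Tbx21 alone, 1.04 with at least 2 UMIs, and 0.861 without cells that held a UMI of Lyz2, C1qa, Cd14, Epcam, Krt8 or Jchain, which left only 70 members in CD163_FL and 35 in CD163_NC. The share thus depends on depth and on the rule.

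Between the libraries, the 1307 higher genes became 494 at 2-fold. The 1929 lower genes became 801 thinned, 716 without other-cell UMIs, 1213 at 50 UMIs per gene and 899 at 2-fold. Against the negative CD4 T cells, the 198 genes higher in both libraries became 92, 104, 113 and 36 under these alternatives, and the 318 lower genes became 117, 59, 201 and 120, and 165 without naive comparison cells, a choice made after the data were seen. Thinning and the other-cell condition leave fewer UMIs, so fewer genes are measured. Thinning also placed cells that lost their Ifng and Tbx21 UMIs among the negative CD4 T cells. It left 334 members and 597 negative cells in CD163_FL, and 299 and 274 in CD163_NC. Of 440 recomputed values of named genes, 387 held, 47 moved and 6 changed sign. All 6 did so without naive comparison cells, given as the log2 ratio of the library that stood farther from the original direction: Dclk1 at -0.15, Il2ra at -0.0023, Igfbp4 at 0.94, St8sia6 at 0.26, Patj at 1.22, and Ccr7 at 3.66, which that choice of cells fixes.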

Other observations

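Receptor segments were read in few cells, as the 3' kit captures little of them. A Trbv segment was seen in 131 type 1 helper cells of CD163_FL and 82 of CD163_NC, over 19 of 35 segments in each library. Trbv12-2 was the segment of 24.4% of those cells in CD163_FL and 15.9% in CD163_NC. Among CD4 T cells with an Il21 UMI, which the rule leaves out, 91 of 106 in CD163_FL (85.8%) and 176 of 221 in CD163_NC (79.6%) also had Ifng or Tbx21. For cells with Foxp3 the shares were 26.4% in CD163_FL and 17.3% in CD163_NC.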
